A study of Capra hircus with 3 samples.

Results

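The genes described here are 10 genes of endothelial cells and of blood vessel growth, PECAM1, CDH5, VWF, KDR, FLT1, TEK, TIE1, VEGFA, ANGPT1 and ANGPT2, in mammary gland tissue of lactating Laoshan dairy goats. They were chosen by symbol and found through the goat NCBI gene ID, and all 10 of 10 had a deposited value, among 13023 protein-coding genes in all. The goats were 4 years old and in the third lactation, and the tissue was taken by surgery 10, 90 and 210 days after parturition. The study's methods describe 5 goats in all, so the 3 stages appear to share their donors, although no source states this outright. RNA of 5 goats was mixed in equal amounts at each stage, per the labels, and sequenced as 1 library, called the E library (labelled early lactation), the P library (labelled peak lactation) and the L library (labelled late lactation). The values are FPKM, that is, fragment numbers scaled by transcript length and by the mapped reads of the library, so levels of different genes are compared per length. With 1 pooled library per stage there is no spread between replicates, so no value has an error, no difference has a replicate check, and no p-value is given. Read numbers per gene were not used here and the depth behind each FPKM is unknown.

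As background, endothelial cells line the blood vessels of the gland, and the lactating mammary gland depends on a dense capillary bed around its alveoli for the supply of water, glucose, amino acids and lipids. VEGFA is a secreted growth factor that acts on endothelial cells through the receptor tyrosine kinase KDR, while FLT1 binds the same ligand tightly and can act as a trap for it. TEK is the receptor of the angiopoietins and TIE1 is its partner receptor. ANGPT1 activates TEK and is known for keeping vessels quiet and tight, and ANGPT2, which endothelial cells make themselves, can oppose it. PECAM1 and CDH5 are adhesion proteins of endothelial junctions, and VWF is a clotting protein stored in endothelial cells.

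The names of the libraries follow their labels. For most lncRNA genes that could be matched by ID, the ratio between the P and the L library ran in the other direction in the study's supplementary tables, so every statement on the P or the L library holds for the column carrying that label, and values with these columns exchanged are given in the closing section. A single unannotated locus held 30.0%, 46.0% and 29.9% of the FPKM sum of the E, P and L libraries. When the libraries were rescaled to equal sums without that locus, every log2 ratio of P over E moved by 0.52, of L over E by 0.13 and of L over P by -0.39, and the median of all protein-coding genes moved with them. The share of protein-coding genes with a lower ratio is the same under both scalings, whereas the order of the libraries for a gene is not. Orders and folds below are those of the deposited values, and where the rescaling, called equal sums, turns one, this is said. The luminal epithelial gene KRT19, a keratin, had 439, 413 and 364 FPKM in the E, P and L libraries, and the milk protein gene CSN3 had 25446, 3989 and 27391 FPKM. LALBA, the milk whey protein alpha-lactalbumin, had 70053 FPKM in the E library and 15214 FPKM in the P library and was listed at 0 in the L library.

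All 10 genes were above 0 FPKM in all 3 libraries. By mean FPKM the order was PECAM1 (44.1), VWF (32.7), KDR (28.6), CDH5 (10.4), VEGFA (8.08), TEK (7.34), ANGPT2 (7.02), TIE1 (5.66), FLT1 (4.29) and ANGPT1 (1.82). Whether neighbours in this order differ beyond the variation between goats cannot be told from pooled libraries. PECAM1, VWF and KDR held the first 3 places in each library, with PECAM1 first in the E and P libraries and VWF first in the L library. ANGPT1 was the lowest of the 10 in each library. ANGPT2 changed place most, from 7 in the E library to 4 in the P library and 9 in the L library. In bulk tissue, fewer endothelial cells and less RNA per cell cannot be told apart.

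**Figure D1:**
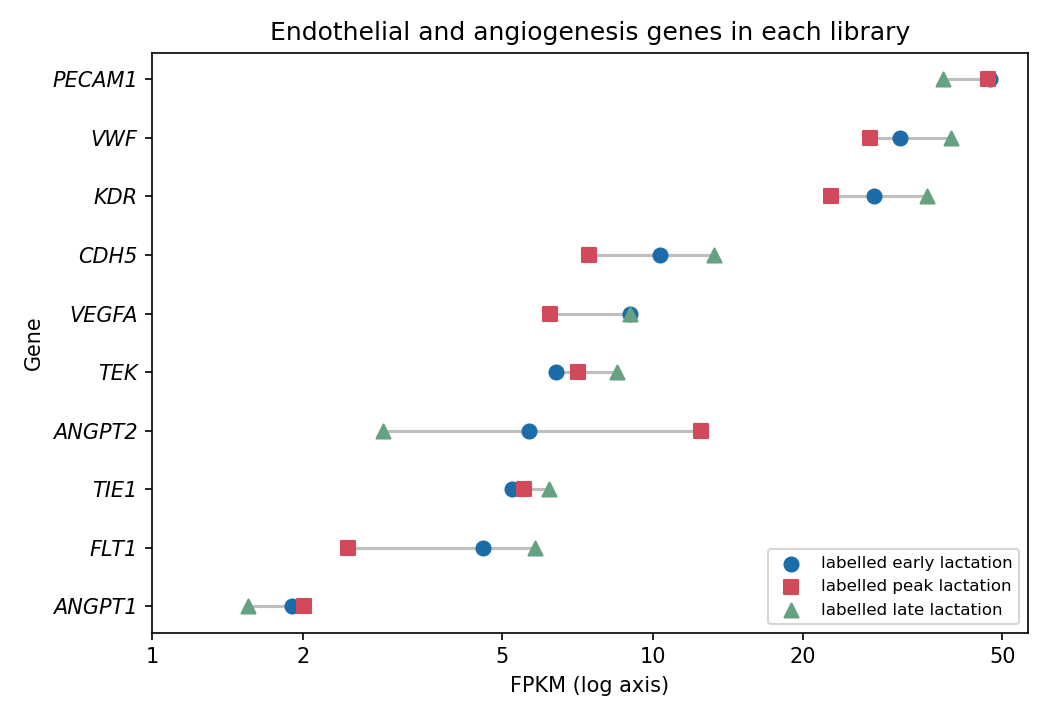
FPKM of the 10 genes (rows, ordered by mean) in the early (circles), peak (squares) and late (triangles) libraries, as labelled, on a log axis, with a grey line from the lowest to the highest value. ANGPT2 has the longest line, from 2.89 to 12.5 FPKM, followed by FLT1, from 2.47 to 5.81 FPKM.

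Among the junction and storage proteins of endothelial cells, PECAM1 (scaffold NW_005100886.1, 24246557 to 24312898) stood at 47.4 FPKM in the E library, 46.9 FPKM in the P library and 38.1 FPKM in the L library. The E and P values were nearly equal, with a log2 ratio of -0.01, and the L library was lowest, 1.23-fold below the P library. With equal sums the P library was 1.42-fold above the E library. At these levels PECAM1 stood above 93.7%, 95.3% and 91.5% of protein-coding genes. CDH5, on scaffold NW_005100869.1 from 3119205 to 3159610, had 10.3, 7.46 and 13.3 FPKM in the E, P and L libraries. Its order was thus L, E, P, unlike that of PECAM1, and the L library was 1.78-fold above the P library. VWF, on scaffold NW_005100676.1 from 1081014 to 1205030, had 31.2, 27.2 and 39.6 FPKM in the same order of libraries as CDH5, with the L library 1.45-fold above the P library. With equal sums CDH5 and VWF were still highest in the L library but lowest in the E library, with log2 ratios of P over E of 0.05 and 0.32. The ratio of L over P was above that of 88.6% of protein-coding genes for CDH5 and of 80.4% for VWF.

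PECAM1 is also made by leukocytes and platelets, whereas CDH5 is close to particular for endothelium. Of 7 leukocyte genes, 6 were highest in the P library, where 43.4% of protein-coding genes above 0 in all libraries were highest. For 2 of the 6 the E and P values were nearly equal, with 12.4 and 12.5 FPKM for CD14 and 2.290 and 2.294 FPKM for ITGAM. CD68 was 1.12-fold higher in the P than in the E library. The summed FPKM of the 7 genes was 67.4, 135 and 42.9 in the E, P and L libraries. PTPRC, the common leukocyte antigen, had 17.6, 39.9 and 8.08 FPKM, the plasma cell gene MZB1 had 15.0, 50.8 and 11.4 FPKM, the macrophage receptor CSF1R had 16.6, 25.6 and 7.55 FPKM, and the T cell gene CD3E was listed at 0 in the E and P libraries. Of 6 platelet genes only ITGA2B was found, at 1.49, 1.51 and 1.61 FPKM. The part of leukocyte or platelet RNA in the PECAM1 values was not tested. The geometric mean of PECAM1 and CDH5 was 22.1, 18.7 and 22.5 FPKM in the E, P and L libraries.

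Of the VEGF receptors, KDR, on scaffold NW_005100696.1 from 42734240 to 42781091, had 27.7, 22.8 and 35.4 FPKM in the E, P and L libraries. FLT1, on scaffold NW_005100792.1 from 20197811 to 20377082, had 4.58, 2.47 and 5.81 FPKM. Both receptors were lowest in the P library and highest in the L library, and the difference was wider for FLT1. With equal sums FLT1 kept this order, while KDR was lowest in the E library, with a log2 ratio of P over E of 0.24. FLT1 in the L library was 2.36-fold above the P library, a log2 ratio of 1.24, and 5.87% of protein-coding genes had a higher ratio. Between the E and P libraries FLT1 was 1.86-fold higher in the E library, just short of 2-fold. KDR was 1.55-fold higher in the L than in the P library, a log2 ratio of 0.63, and 16.4% of protein-coding genes had a higher ratio.

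Of the angiopoietin receptors, TEK, on scaffold NW_005100734.1 from 3329378 to 3429313, had 6.42 FPKM in the E library, 7.11 FPKM in the P library and 8.48 FPKM in the L library. TIE1, on scaffold NW_005100643.1 from 3412973 to 3433192, had 5.24, 5.53 and 6.20 FPKM. Both were lowest in the E library and highest in the L library, and their L values were 1.32-fold and 1.18-fold above the E values. With equal sums both were highest in the P library instead, 1.59-fold above the E library for TEK and 1.51-fold for TIE1, so the order of the P and L libraries for these genes depends on the scaling.

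Of the ligands, VEGFA, on scaffold NW_005100916.1 from 14984410 to 14996245, had 9.02 FPKM in the E library, 6.24 FPKM in the P library and 8.995 FPKM in the L library. The E and L values were nearly equal and the E library was 1.45-fold above the P library. With equal sums the VEGFA values were at most 1.10-fold apart. ANGPT1, on scaffold NW_005100812.1 from 19032322 to 19336704, had 1.90, 2.01 and 1.55 FPKM, with at most 1.29-fold between any pair of libraries, or 1.70-fold with equal sums. ANGPT2 had 5.67 FPKM in the E library, 12.5 FPKM in the P library and 2.89 FPKM in the L library. It was thus highest in the P library and lowest in the L library, and with equal sums it had the same order. The P library was 2.20-fold above the E library, a log2 ratio of 1.14, and 4.32-fold above the L library, where the log2 ratio of L over P was -2.11. The L library was lower than the E library by 1.97-fold, a log2 ratio of -0.97 that falls just short of 2-fold. Among all protein-coding genes 91.2% had a lower ratio than ANGPT2 for P over E, 6.97% for L over E and 6.17% for L over P.

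The ANGPT2 value is the sum of 2 entries with the same gene ID, an annotated one and one assembled by the authors, both listed on scaffold NW_005100951.1 from 5332196 to 5558409. The annotated entry had 3.44, 5.56 and 2.03 FPKM in the E, P and L libraries. The assembled entry had 2.23, 6.92 and 0.857 FPKM. Both entries were highest in the P library and lowest in the L library. The annotated entry alone was 1.62-fold higher in the P than in the E library, below 2-fold, and 2.74-fold higher in the P than in the L library. The assembled entry was 3.10-fold and 8.08-fold higher in the P library, and it made up 39.4%, 55.4% and 29.7% of the ANGPT2 sum in the E, P and L libraries. The same interval is also listed for MCPH1, a gene of chromosome condensation, which had 3.47, 4.32 and 3.31 FPKM. In the ARS1.2 gene table ANGPT2 lies wholly within the span of MCPH1, so the listed interval is not that of ANGPT2 alone. Whether the authors' counting used the strand of the reads is not given in the sources used here, and reads shared between these entries were not tested. For the other 9 genes no other entry overlapped the listed interval.

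**Figure D2:**
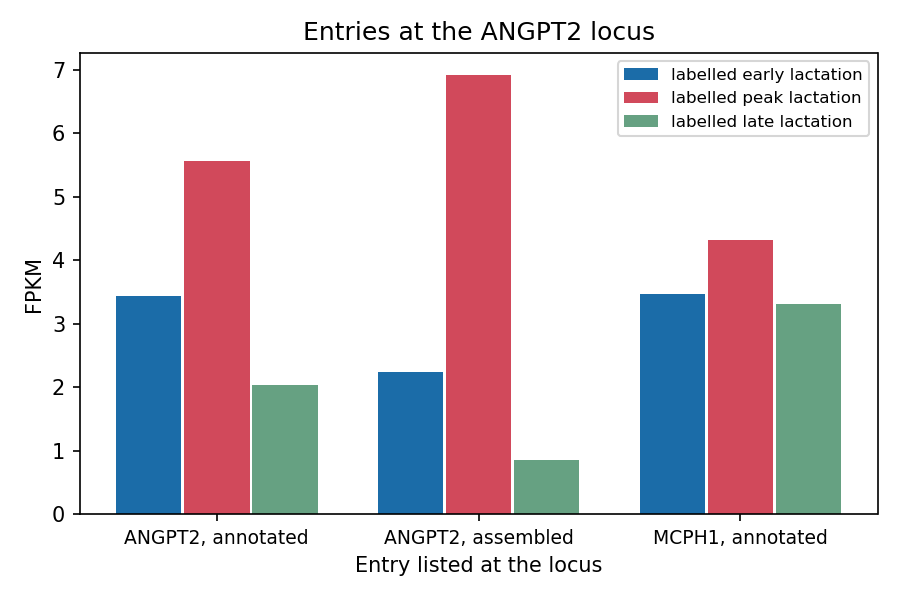
FPKM (bars, from 0) of the 3 entries listed at the ANGPT2 locus in the early, peak and late libraries, as labelled. Both ANGPT2 entries are highest in the library labelled peak and lowest in that labelled late, while MCPH1 stays between 3.31 and 4.32 FPKM.

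Between the E and P libraries, 1 of the 10 genes, ANGPT2, was at least 2-fold higher in the P library and none was at least 2-fold lower. Among all protein-coding genes above 0 in either library, 10.9% were at least 2-fold higher in the P library and 6.80% lower, 17.7% in all. The share among the 10 genes is thus no larger than among all genes. The 10 log2 ratios of P over E ran from -0.89 for FLT1 to 1.14 for ANGPT2, with 4 above 0, 6 below 0 and a median of -0.11, against a median of 0.01 over all protein-coding genes. With equal sums without the most abundant locus, 8 of the 10 were above 0 and the median was 0.41, against 0.53 over all protein-coding genes. This scaling also moved the share higher in the P library among all protein-coding genes called from 61.6% to 89.0%. ANGPT2 remained at least 2-fold higher in the P library under both.

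Between the E and L libraries none of the 10 genes was at least 2-fold apart, and ANGPT2 came nearest. Over all protein-coding genes 8.71% were called, 1.97% higher and 6.74% lower in the L library. The log2 ratios of L over E of CDH5, VWF, KDR, FLT1, TEK and TIE1 lay close together, from 0.24 to 0.40. These are the endothelial genes of the 10 other than PECAM1 and ANGPT2, and the ratio of each was above that of at least 82.2% of protein-coding genes, up to 91.0% for TEK. PECAM1 and ANGPT2 went the other way, with -0.31 for PECAM1, which was below 76.5% of protein-coding genes, and -0.97 for ANGPT2, which was below 93.0%. Single ratios of this size cannot be set against variation between goats. The median of the 10 was 0.29, against -0.03 over all protein-coding genes. VEGFA had a log2 ratio of -0.00 and ANGPT1 of -0.29. These ratios share the E library with those of P over E.

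Between the P and L libraries 2 of the 10 genes were at least 2-fold apart, FLT1 higher and ANGPT2 lower in the L library. Of all protein-coding genes, 8.56% were at least 2-fold higher in the L library and 17.4% lower, 25.9% in all. With 7 ratios of L over P above 0 and 3 below, the median of the 10 was 0.39, against -0.03 over all protein-coding genes. The widest ratios after those of FLT1 and ANGPT2 were 0.83 for CDH5, 0.63 for KDR, 0.54 for VWF and 0.53 for VEGFA. With equal sums without the most abundant locus, 5 of the 10 were above 0, FLT1 was below 2-fold and the median was -0.0019, against -0.42 over all protein-coding genes. That scaling moved the share higher in the L library among all protein-coding genes called from 33.0% to 15.3%. ANGPT2 was at least 2-fold lower in the L library under both scalings.

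**Figure D3:**
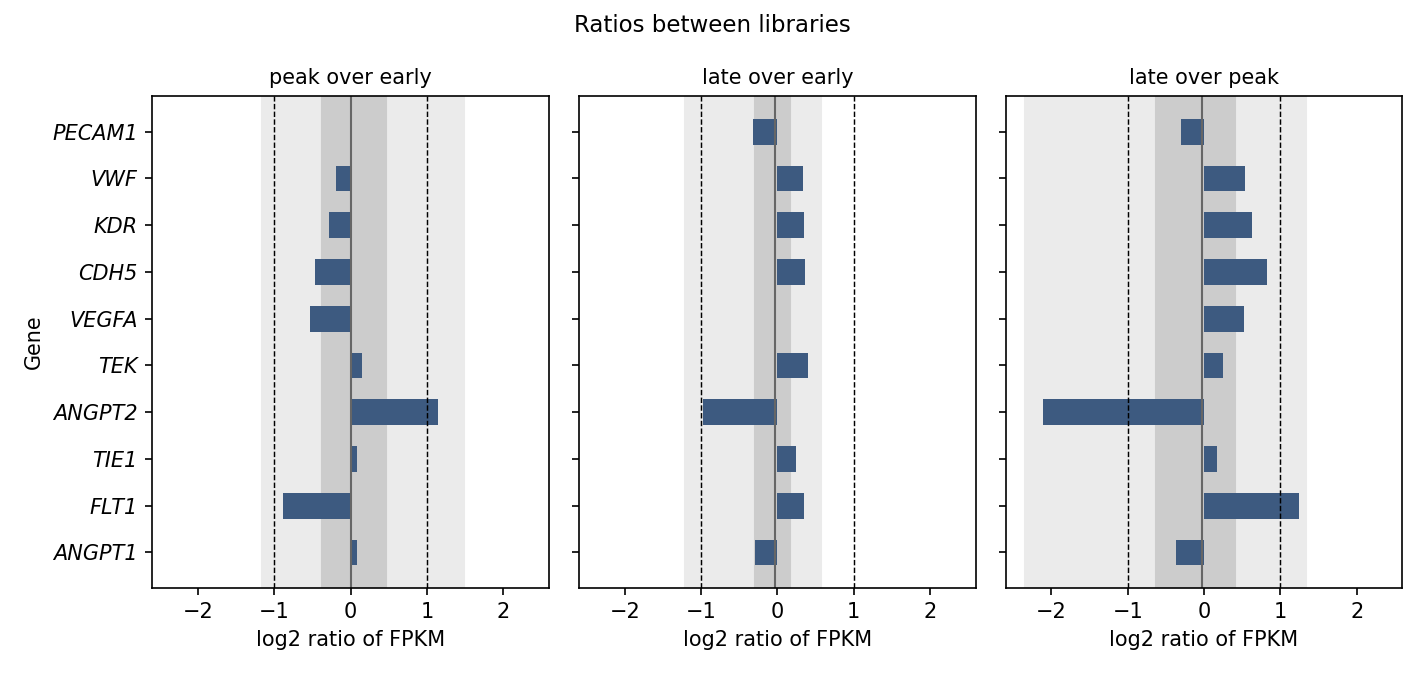
Log2 ratios of FPKM (bars) of the 10 genes between the libraries named by their labels, with dashed lines at 2-fold. Grey bands hold the middle 50% (dark) and 90% (light) of all protein-coding genes and the grey line is their median. In the ratio of late over early, 6 bars of 0.24 to 0.40 lie above the dark band and PECAM1, ANGPT1 and ANGPT2 below it, and in that of late over peak ANGPT2 reaches -2.11 and FLT1 1.24.

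Of the 10 genes, 5 were lowest in the P library, namely CDH5, VWF, KDR, FLT1 and VEGFA, 3 in the L library and 2 in the E library. Of 12764 protein-coding genes above 0 in all libraries, 41.9% were lowest in the P library. The order L, E, P from high to low was shared by CDH5, VWF, KDR and FLT1 and by 26.4% of all protein-coding genes. With equal sums the genes lowest in the P library were 2 of the 10, FLT1 and VEGFA, against 15.7% of all protein-coding genes, and CDH5, VWF and KDR were lowest in the E library. Of 9 luminal genes, 4 were lowest in the P library, 3 highest there, where 43.4% of all protein-coding genes were highest. These luminal counts depend on the scaling, since 3 of the 9 had a ratio of P over E above 0 as deposited and 6 with equal sums. ELF5, a transcription factor of milk-secreting cells, had 879, 244 and 875 FPKM, while the keratin KRT8 had 126, 196 and 154 FPKM. Their part in the endothelial values was not tested.

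A ratio between genes within a library does not depend on the scaling between libraries. The ratio of ANGPT2 to ANGPT1 was 2.98 in the E library, 6.21 in the P library and 1.86 in the L library, so that ANGPT2 exceeded ANGPT1 per length in each library and most in the P library. It moved 3.34-fold between the L and P libraries, the widest of the 5 ratios computed. With the annotated ANGPT2 entry alone, the ratio was 1.81, 2.77 and 1.31. The ratio of FLT1 to KDR was 0.165, 0.108 and 0.164, nearly equal in the E and L libraries and lower in the P library. TIE1 to TEK was the steadiest, at 0.816, 0.778 and 0.731. VEGFA to KDR, ligand to receptor, was 0.326, 0.274 and 0.254, and VEGFA to FLT1 was 1.97, 2.53 and 1.55.

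**Figure D4:**
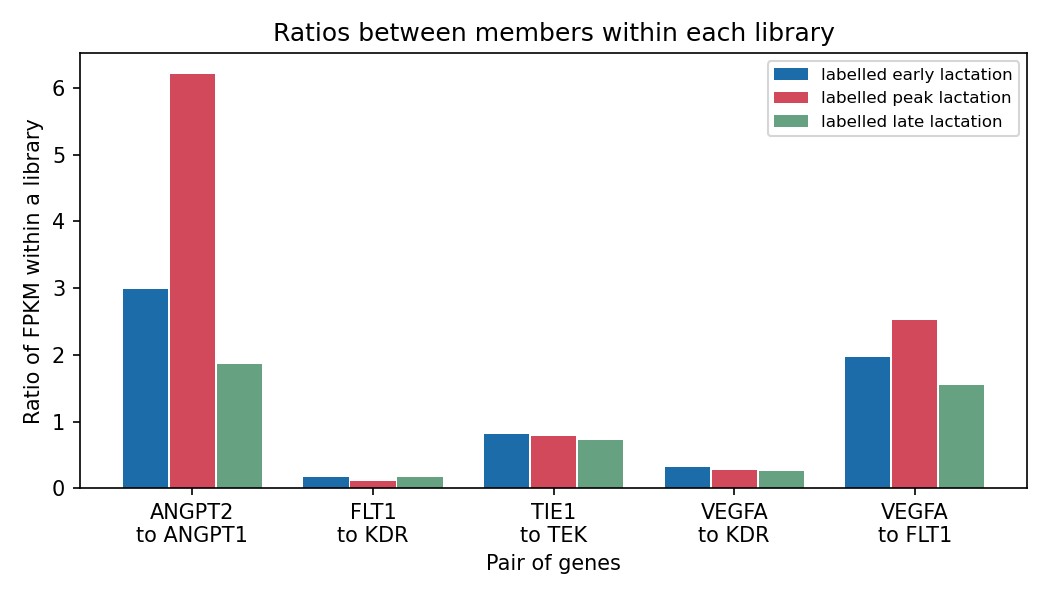
Ratio of FPKM within each library (bars, from 0) for 5 pairs of genes in the early, peak and late libraries, as labelled. The ratio of ANGPT2 to ANGPT1 is 6.21 in the library labelled peak, against 2.98 and 1.86 in those labelled early and late, and the other ratios move by at most 1.63-fold.

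Set against the geometric mean of PECAM1 and CDH5, as a rough measure of endothelial RNA, ANGPT2 was 0.256, 0.668 and 0.128 in the E, P and L libraries. On this scale it was again highest in the P library. VWF was 1.41, 1.46 and 1.76, KDR 1.25, 1.22 and 1.57, and FLT1 0.207, 0.132 and 0.259. FLT1 was thus lowest in the P library also relative to these endothelial genes, while VWF and KDR were nearly equal in the E and P libraries on this scale. The measure joins 2 genes that moved apart, with log2 ratios of L over P of -0.30 for PECAM1 and 0.83 for CDH5. CDH5 fell more from E to P, and rose more from P to L, than VWF and KDR did. Against CDH5 alone, VWF and KDR would therefore stand highest in the P library.

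Other genes of endothelial cells were read from a list of 27, of which 25 had a value. Between the E and P libraries 1 was at least 2-fold higher and 4 lower in the P library, and between the P and L libraries 6 were higher and 2 lower in the L library. The median log2 ratio of L over P was 0.05, or -0.34 with equal sums, against -0.03 and -0.42 over all protein-coding genes. With equal sums without the most abundant locus the counts were 5 higher and 2 lower for P over E, and 2 higher and 4 lower for L over P. That scaling moves the background too. For P over E, genes higher went from 1421 to 3156 of 13020 protein-coding genes, and genes lower from 886 to 392. For L over P, genes higher went from 1114 to 599 of 13015, and genes lower from 2263 to 3327. The list counts with equal sums, here and below, are to be read beside these. CD36, a fatty acid receptor of capillaries that milk-secreting cells also make, had 685, 179 and 782 FPKM. RAMP2, a partner of the adrenomedullin receptor, had 49.3, 18.2 and 37.9 FPKM. GPIHBP1, which holds lipoprotein lipase on the capillary wall, had 1.95, 0.565 and 4.44 FPKM, and TAL1, a transcription factor of blood and endothelial cells, had 1.98, 2.32 and 4.53 FPKM. TSPAN7, a tetraspanin, went the other way, with 4.91, 7.67 and 3.31 FPKM. The general endothelial genes did not share a single order across libraries.

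Of 6 genes of activated or sprouting endothelium, 5 had a value, and 2 of them were at least 2-fold higher in the P than in the E library, with no 2-fold difference the other way. ESM1, a product of endothelial tip cells, had 10.6, 33.6 and 6.23 FPKM in the E, P and L libraries, and ICAM1, an adhesion protein that leukocytes and epithelium make as well, had 5.70, 18.3 and 3.25 FPKM. Both stood highest in the P library and lowest in the L library, which is the order of ANGPT2. The 6 leukocyte genes highest in the P library were lowest in the L library too. SELP, the P-selectin of endothelium and platelets, was also at least 2-fold lower in the L than in the P library. SELE, with 0.839, 0.633 and 0.836 FPKM, and APLN, with 1.45, 0.805 and 1.29 FPKM, were lowest in the P library instead. Neither was 2-fold apart in any pair. With equal sums 4 of the 5 had a ratio of P over E above 0, against 3 as deposited, and APLN was still lowest in the P library. The list thus did not share 1 order.

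Of 7 other genes of the VEGF family and its receptors, 2 were at least 2-fold higher in the P than in the E library, and 4 were at least 2-fold lower in the L than in the P library. With equal sums the first count was 4 and the second again 4. FLT4, the VEGF receptor of lymphatic vessels, had 1.85, 6.01 and 1.66 FPKM, and VEGFB, a ligand of FLT1, had 4.60, 8.69 and 2.92 FPKM. The 2 genes higher in the P than in the E library as deposited were FLT4, counted again among the lymphatic genes below, and PGF. PGF was low, with 0.316, 1.15 and 0.210 FPKM. NRP1, a coreceptor of KDR, was the most abundant, with 36.3, 25.0 and 42.0 FPKM, and had the same order of libraries as FLT1. VEGFB therefore was highest where its receptor FLT1 was lowest, whereas VEGFA, which FLT1 also binds, was lowest in the same library as FLT1.

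Of 11 other angiogenic ligands and receptors, 3 were at least 2-fold higher and none lower in the P than in the E library, and 6 were lower and 1 higher in the L than in the P library. With equal sums 6 were higher and none lower in the P than in the E library, and 7 were lower and 1 higher in the L than in the P library. FGF2, a fibroblast growth factor, had 11.8, 26.8 and 8.42 FPKM, and HGF, a ligand of stromal cells, had 1.40, 3.83 and 0.879 FPKM. CXCL12, a chemokine of stromal and endothelial cells, was the most abundant with 25.5, 48.5 and 30.1 FPKM. APLNR, the endothelial apelin receptor, was the 1 gene at least 2-fold higher in the L than in the P library, with 1.99, 1.39 and 4.56 FPKM. Of the 11 genes, 8 were highest in the P library, where 43.4% of all protein-coding genes were highest. With equal sums 10 of the 11 had a ratio of P over E above 0, against 9 as deposited. For L over P, 10 were below 0 with equal sums, against 9 as deposited. Of 8 angiogenesis inhibitors with a value, 2 were at least 2-fold lower in the L than in the E library. These were THBS1, a thrombospondin, with 51.3, 61.2 and 16.3 FPKM, and VASH1, a vasohibin of endothelial cells, with 3.15, 3.96 and 1.03 FPKM. THBS2 had 5.73, 18.7 and 3.31 FPKM, and SPARC, a matrix protein and the most abundant of this list, had 155, 63.6 and 122 FPKM.

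Of 11 genes of Notch and ephrin signalling, none was at least 2-fold higher and 2 were lower in the P than in the E library, and 3 were higher in the L than in the P library. With equal sums without the most abundant locus, 2 were higher and none lower in the P than in the E library, and 2 were higher and 1 lower in the L than in the P library. NOTCH4, a Notch receptor of endothelium, had 3.12, 1.33 and 3.67 FPKM, and its target HEY1 had 2.52, 1.44 and 3.36 FPKM. Both had the order of FLT1. JAG1, a Notch ligand, was the most abundant, with 8.52, 11.4 and 10.3 FPKM.

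VEGFA is a target of hypoxia-inducible factors, and 14 of 16 listed genes of that response had a value. Between the E and L libraries none was at least 2-fold apart, and between the E and P libraries 1 was higher and 1 lower in the P library, or 2 and none with equal sums. EPAS1, a hypoxia-inducible factor that endothelial cells express, had 62.1, 31.4 and 63.3 FPKM, and the glucose transporter gene SLC2A1 had 32.2, 14.9 and 35.4 FPKM. Both were lowest in the P library. LDHA, a glycolytic enzyme, was highest there instead, with 9.86, 22.9 and 11.8 FPKM, and EGLN3, an oxygen sensor, had 5.59, 3.42 and 9.09 FPKM. The median log2 ratio of the 14 genes was -0.07 for P over E and -0.11 for L over P, and with equal sums without the most abundant locus it was 0.45 and -0.50.

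Cells around vessels were read from 13 genes of pericytes and smooth muscle, all of them with a value. All 13 had a log2 ratio of L over E above 0, though those of ACTA2 (0.007) and TAGLN (0.09) were close to 0. Their median was 0.36, against -0.03 over all protein-coding genes, and none was at 2-fold, or 2 with equal sums. Between the E and P libraries 1 was at least 2-fold higher and 2 were lower in the P library, against 2 higher and none lower with equal sums without the most abundant locus. ACTA2, TAGLN, MYH11 and CNN1 on this list are also expressed by the myoepithelial cells of the gland. RGS5, a pericyte gene, had 24.0, 10.0 and 35.5 FPKM in the E, P and L libraries, and HIGD1B had 4.27, 1.70 and 5.59 FPKM. These had the order of FLT1. TAGLN, the most abundant, had 165, 173 and 176 FPKM, and DES, an intermediate filament of muscle, had 5.50, 17.8 and 10.3 FPKM.

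The genes listed as lymphatic gave another picture, though which cells made this RNA was not tested. Of 7 lymphatic genes, 5 were at least 2-fold higher in the P than in the E library and 6 were at least 2-fold lower in the L than in the P library, the latter under both scalings. CCL21, a chemokine of lymphatic endothelium, had 5.97, 19.5 and 2.80 FPKM, and RELN had 2.50, 7.51 and 1.93 FPKM. PROX1, the transcription factor that sets lymphatic identity, did not share this order, with 6.67, 6.10 and 8.26 FPKM. The summed FPKM of the list was 29.7, 66.8 and 23.6 in the E, P and L libraries. ANGPT2 is also made by lymphatic endothelium, and the part of lymphatic, leukocyte or stromal cells in its P value was not tested. Among 8 fibroblast genes 2 were higher and 2 lower in the P than in the E library, with 713, 644 and 579.5 FPKM in sum. With equal sums 4 were higher and none lower. FBLN1 had 26.0, 62.2 and 18.3 FPKM, PDGFRA had 13.7, 28.0 and 11.3 FPKM, COL1A2 had 138, 65.8 and 106 FPKM, and COL3A1 had 255, 123 and 220 FPKM. Of 5 adipocyte genes 4 had a value, in sum 34.1, 13.1 and 22.0 FPKM. ADIPOQ, the adipocyte hormone adiponectin, had 15.1, 4.10 and 5.69 FPKM and the lipase gene PNPLA2 had 16.0, 7.30 and 15.6 FPKM.

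**Figure D5:**
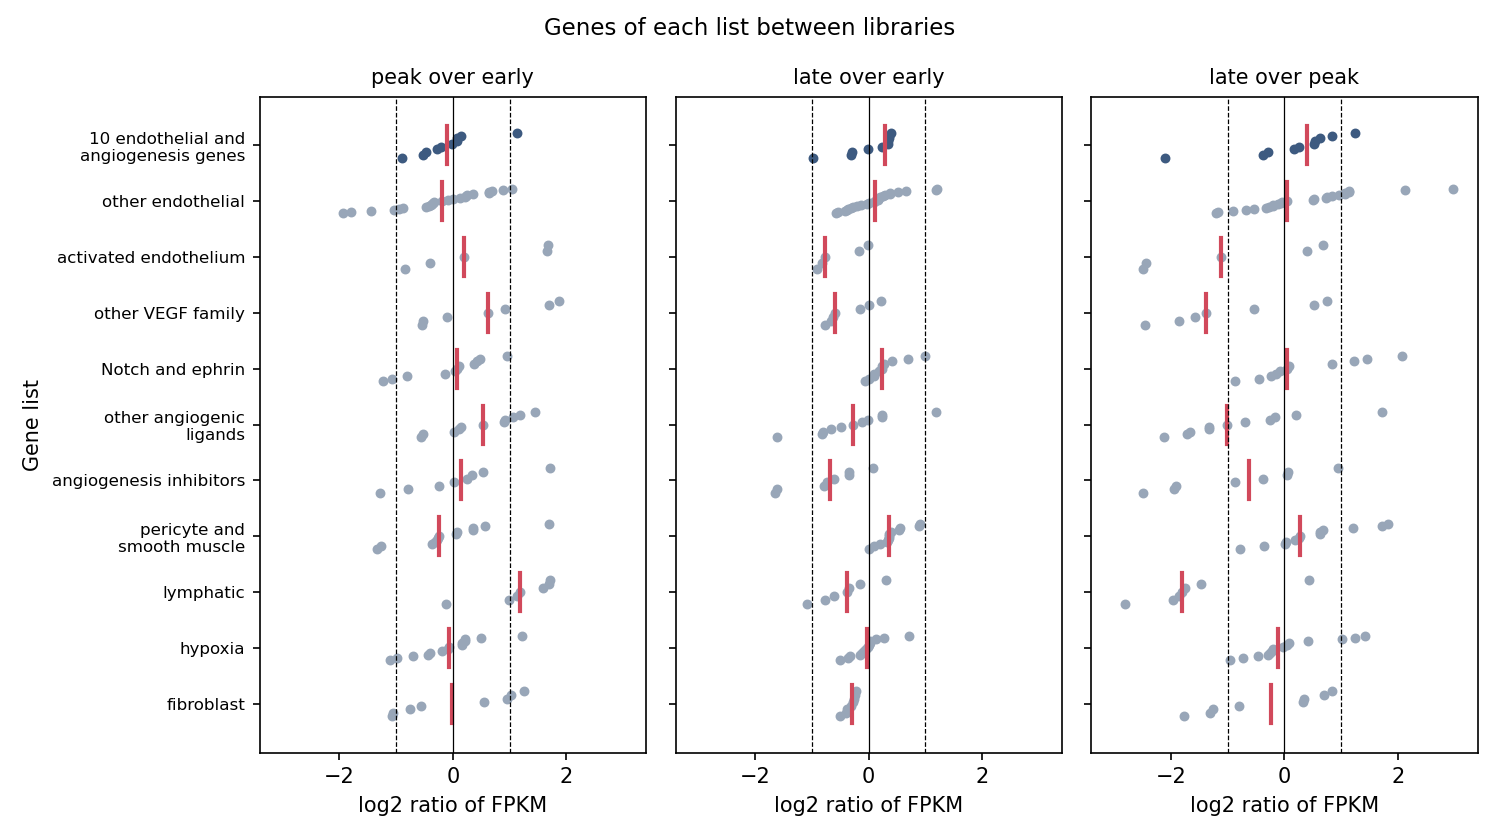
Log2 ratios of FPKM between the libraries named by their labels for single genes (points) of the 10 genes and of 10 other lists, with the list median as a red bar and dashed lines at 2-fold. The lymphatic median is 1.19 for peak over early and -1.80 for late over peak, against -0.11 and 0.39 for the 10 genes.

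The protein-coding genes whose 3 centred log2 FPKM lay nearest to the median profile of the 10 genes, among 11945 with a mean of at least 1 FPKM, were SPTBN1, DDRGK1, SOD3, PGAP3 and VDAC1. SPTBN1 had 99.6, 90.0 and 114 FPKM in the E, P and L libraries. With 3 libraries such a likeness is weak, since 4028 of these genes lay as near to the profile as the median gene of the 10.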

How the data were processed

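Mammary gland RNA of 5 goats was mixed for each stage and sequenced from a stranded kit. Reads were cleaned by the authors with Trimmomatic, then mapped (TopHat2 2.0.9) and assembled (Cufflinks 2.1.1, Cuffmerge). Bowtie2 is also named in the submitters' processing notes. From Cuffdiff the authors took FPKM, which were deposited for 50041 loci with 1 column for each library, matched here by its label. Many end in an added digit 5 (47.2%, 52.0% and 46.6% of the E, P and L values). What was averaged, if anything, is not given in the sources used here. Scaffold names and positions are printed as deposited, and the table does not name their assembly.

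Gene IDs were matched to the ARS1.2 gene table for symbols and gene classes, and 14403 of 15274 loci with a single gene ID matched. Loci of a gene were summed. Ratios used FPKM with 0 set to 0.001 and genes were called at a fold of at least 2. Since each stage has 1 library and the values are not read counts, no test was run. The background of each comparison is all protein-coding genes above 0 in either library.

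The members and the 14 other lists were chosen with earlier results of these data known. From each other list the text names the gene with the highest mean FPKM and up to 2 genes with the largest ratio per comparison, among those at least 2-fold apart with at least 1 FPKM in both libraries. Defining cell type genes listed at 0 are named too. KRT8, KRT19, SELP, SELE, APLN, PROX1, MCPH1, CD14, CD68, ITGAM and PGF fall outside that rule and were chosen after their values were seen. Alternatives were a fold of 4 or 1.5, pseudocounts of 0.1 and 1, a minimum of 1 FPKM, the highest locus of a gene only, rescaled libraries and exchanged columns. Fold calling was tested on simulated data for P over E with 12958 genes, where 200 of 200 changed genes were recovered with 0 false calls. The simulation had no noise, with the changed genes set beyond 2-fold and all others kept below it. Its outcome was thus fixed in advance, and it checks the calling code only, not the calls from single pooled libraries. Python 3.11.15, numpy 2.4.6, pandas 2.3.3 and matplotlib 3.10.9 were used.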

Additional observations from a re-analysis of the deposited data

How the results depend on the processing

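At a fold of at least 4, the members called numbered 0 for P over E and 1 (ANGPT2) for L over P, with 3.56%, 3.28% and 8.66% of protein-coding genes called for P over E, L over E and L over P. At 1.5 they numbered 2, 1 and 4, with 36.8%, 17.8% and 44.0% called. A pseudocount of 1 left 1 member for L over P, gave median log2 ratios of -0.10, 0.25 and 0.35, and called 9.17%, 2.13% and 15.2% of protein-coding genes. A minimum of 1 FPKM in both libraries called 2.88% for L over E. With the highest locus of each gene only, 0 members were called for P over E, since the annotated ANGPT2 entry alone is below 2-fold. Centring on the median protein-coding ratio gave members' medians of -0.081, 0.30 and 0.36. Equal sums without the most abundant locus gave 0.41, 0.42 and -0.0019, left 1 member for L over P, and called 27.3% of protein-coding genes for P over E. With the peak and late columns exchanged, 0 members were called for P over E and 1 for L over E, the medians were 0.29, -0.11 and -0.39, and the log2 ratios were -0.97 for ANGPT2 in P over E, and 2.11 for ANGPT2 and -1.24 for FLT1 in L over P. A pseudocount of 0.1 kept each count of members and moved no median by 0.01 or more. No replicate could be left out. No paired analysis was possible because there was a single pooled library for every stage and no test was run.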
